A study of Mus musculus with 6 samples.

Results

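The transcription factors that direct red cell and megakaryocyte differentiation were followed in bone marrow cells carrying the MLL-AF9 fusion oncogene. The 10 genes were taken by symbol from a list of the GATA, TAL1 and KLF1 circuit (Gata1, Gata2, Zfpm1, Tal1, Lyl1, Lmo2, Ldb1, Klf1, Nfe2 and Gfi1b), out of 55487 genes in the table, and all 10 were found. RNA was sequenced from GFP+ bone marrow cells of femora and tibiae of C57BL/6 mice, with 3 libraries from recipients given PBS and 3 from recipients given pIpC, a synthetic double-stranded RNA that makes the host release interferon. All recipients were CD45.1(+) CD45.2(-), were lethally irradiated in 2 fractions of 450 cGy, and received 1000 bone marrow leukemia cells of the CD45.2(+) Mx1-Cre Brd9fl/fl MA9 genotype. Injections were given 3 times from the day after transplant, pIpC at 20 mg/kg, and marrow was taken 10 days after injection. The irradiation is given here by the labels, which give no age. For recipients of 1000 leukemic cells, the methods of the paper state an age in weeks and sublethal irradiation with 450 cGy. The Mx1 promoter responds to interferon, so pIpC switches on Cre and with it deletion within Brd9, which encodes a bromodomain subunit of the noncanonical BAF chromatin remodelling complex. The PBS cells carry the same alleles but were not given pIpC, and effects of pIpC and of Cre action cannot be told apart between the groups. GFP marks cells that received the MLL-AF9 retrovirus, whatever their lineage. Whether the recipients of both groups were given cells of 1 primary leukemia is not stated in the sources used here, nor whether a library is 1 animal, so that p-values measure the spread between these libraries.

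GATA1 and GATA2 are zinc finger factors that bind the same GATA sequence. GATA2 is used by stem and progenitor cells and by mast cells, and GATA1 takes over at GATA2-bound sites as red cells and megakaryocytes mature, together with its cofactor FOG1 (the product of Zfpm1). TAL1 and its relative LYL1 are basic helix-loop-helix factors that pair with E proteins on E-box sequences and are held beside GATA factors by the bridging proteins LMO2 and LDB1. KLF1 activates globin and red cell membrane genes through CACCC sequences, NFE2 drives platelet formation and acts at the globin locus, and GFI1B is a repressor needed by both lineages.

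The DNA just before the start site is shown for the 4 factors whose RNA differed most between the groups (Tal1, Gfi1b, Klf1 and Gata1) and for Lyl1, which was lower in the pIpC-labelled libraries. Each run is the 250 bases before the RefSeq start on GRCm38.p6, written 5′ to 3′ on the strand of the gene, and capitals mark the letters GATAA and CACCC on either strand.
Tal1, chr4:115056176-115056425, plus strand: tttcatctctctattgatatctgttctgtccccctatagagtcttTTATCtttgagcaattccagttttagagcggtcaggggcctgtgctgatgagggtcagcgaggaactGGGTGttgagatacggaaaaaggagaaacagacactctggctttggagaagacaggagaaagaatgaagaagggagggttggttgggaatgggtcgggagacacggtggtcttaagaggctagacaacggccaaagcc
Gfi1b, chr2:28621983-28622232, minus strand: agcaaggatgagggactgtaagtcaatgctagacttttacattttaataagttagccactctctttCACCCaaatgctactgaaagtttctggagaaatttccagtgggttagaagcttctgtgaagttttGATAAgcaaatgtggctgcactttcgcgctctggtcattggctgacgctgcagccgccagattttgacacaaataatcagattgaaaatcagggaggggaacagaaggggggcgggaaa
Klf1, chr8:84901732-84901981, plus strand: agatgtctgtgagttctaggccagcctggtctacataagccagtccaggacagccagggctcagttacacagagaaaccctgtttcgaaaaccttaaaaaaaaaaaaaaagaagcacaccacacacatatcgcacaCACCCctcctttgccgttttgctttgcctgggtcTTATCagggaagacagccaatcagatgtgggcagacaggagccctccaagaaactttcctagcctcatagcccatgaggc
Gata1, chrX:7967911-7968160, minus strand: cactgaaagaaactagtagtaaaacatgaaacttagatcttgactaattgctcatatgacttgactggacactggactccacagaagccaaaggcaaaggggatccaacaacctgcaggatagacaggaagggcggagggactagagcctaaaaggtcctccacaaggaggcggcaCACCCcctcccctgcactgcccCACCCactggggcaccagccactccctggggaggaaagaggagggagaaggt
Lyl1, chr8:84701207-84701456, plus strand: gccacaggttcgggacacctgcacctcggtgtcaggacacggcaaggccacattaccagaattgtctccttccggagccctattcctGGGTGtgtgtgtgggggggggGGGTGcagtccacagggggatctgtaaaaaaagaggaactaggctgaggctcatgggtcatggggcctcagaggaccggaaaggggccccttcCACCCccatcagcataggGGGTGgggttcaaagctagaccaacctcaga
Gata1 has longer GENCODE transcripts, so its run lies inside the gene span given below, and the end of the Klf1 run overlaps the Klf1 span. The Tal1 run belongs to the upstream of 2 start sites in the RefSeq table, and the window of the other site holds neither GATAA nor CACCC. The Tal1 run shown holds GATAA with its first base 205 bases before the start and CACCC at 138 bases. In Gfi1b they lie at 119 and 184 bases, and in Klf1 at 80 and 114 bases. The Gata1 run holds no GATAA but holds CACCC at 74 and 52 bases, and the Lyl1 run holds CACCC at 163, 142, 49 and 31 bases. Start sites were listed for 8 of the 10 factors, with 12 windows in all, of which 4 held GATAA, 10 held CACCC and 5 held the E-box letters CANNTG. Over all 32851 windows of the same length, 22.6% held GATAA, 52.0% held CACCC and 66.2% held CANNTG, searched in the same way on both strands. CANNTG reads the same on both strands, and its matches may overlap the other motifs. A match is a match of letters and not a measured binding site.

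The 6 libraries held between 19277439 and 23586722 reads on genes. Brd9, the targeted gene, had normalized counts of 1835 ± 176.2 in the PBS libraries and 2103 ± 138.7 in the pIpC libraries (mean ± SD, n = 3 each), with a log2 difference of 0.20 (limma adjusted p = 0.259). That count runs over the whole gene and does not check a deletion of part of it. Since it was no lower with pIpC, the labels were not checked by it and every direction below is given by label. The groups also differed in Xist, at 15.8 to 72.9 normalized counts in PBS and 18430 to 26170 in pIpC libraries, while none of 4 Y-linked genes had more than 2 reads in any library. PBS replicate 3 stood apart from the other PBS libraries. Its log2 ratio to their mean fell with exon length (Spearman's rho -0.44 across 14977 genes, which are not independent replicates), and it held the highest PBS value in 8 of the 10 factors against 45.2% of all genes tested. The leukemia genes Hoxa9, Hoxa10 and Meis1 were called lower in the pIpC-labelled libraries (3 of 3, beside 20.4% of all genes tested, by the rule given below). Their summed normalized count was 10130 to 10480 in PBS and 470.1 to 527.2 in pIpC. Neutrophil markers were called higher (8 of 8, beside 25.0% of all genes tested), with a sum of 14300 to 33710 in PBS and of 1878000 to 1953000 in pIpC. In bulk RNA, more cells of a type and more RNA per cell cannot be told apart. The part of these differences in the results below was not tested.

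Of the 10 factors, 5 were higher in the pIpC-labelled libraries (Tal1, Gfi1b, Klf1, Gata1 and Zfpm1), 3 were lower (Lmo2, Gata2 and Lyl1), and Nfe2 and Ldb1 did not pass the test. A gene was called when its Benjamini-Hochberg adjusted p from limma was under 0.1 over the 15020 genes whose mean over the 6 libraries reached 10 normalized counts. By that rule 45.3% of all genes tested were called, 25.0% of all tested as higher and 20.4% as lower. The 3 values of each group did not overlap in the same 8 factors, against 56.8% of all genes tested (26.3% with pIpC lower). All 10 factors passed the filter on low counts, but Tal1 and Gfi1b had a PBS mean under 10 and so passed through the pIpC-labelled libraries, so that passing it already required a difference. The median log2 fold change of the 10 factors was 1.14, beside 0.01 over all genes tested. A call with a log2 fold change of 5 or more was made for 2 of the 10 factors, Tal1 and Gfi1b, and for 2.76% of all genes tested. Without PBS replicate 3 all 10 factors were called, 7 as higher and 3 as lower, and so were 65.1% of all genes tested.

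**Figure D1:**
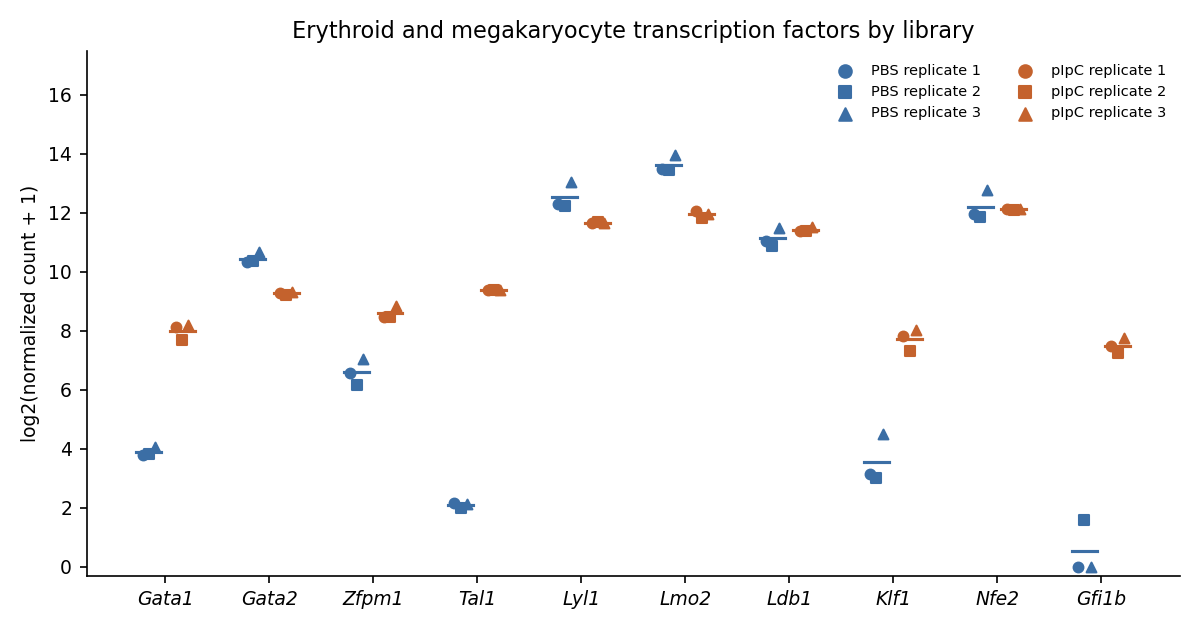
Each point is the log2(normalized count + 1) of a factor (x axis) in a library, with PBS in blue, pIpC in orange, the replicate given by the marker shape and the group mean by a short line. The groups do not overlap for any factor except Ldb1 and Nfe2, and PBS replicate 3 (blue triangles) is the highest PBS library in 8 of 10.

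Among the GATA factors and their cofactor, Gata1 was higher and Gata2 lower in the pIpC-labelled libraries. Gata1 (ENSMUSG00000031162, chrX:7959260-7978071) had normalized counts of 13.0, 13.2 and 15.8 with PBS (replicates 1 to 3) and 281.5, 206.4 and 291.1 with pIpC. The PBS libraries were all near 14 and the lowest pIpC-labelled library, replicate 2, was still at 206.4. Its log2 fold change by limma was 4.11, with a standard error of 0.24 and an adjusted p of 5.27e-05, and on summed reads, 42 against 785 before scaling for depth, the ratio was 18.8 (95% exact interval 13.8 to 26.2, counting error only).
Gata2 (ENSMUSG00000015053, chr6:88193891-88207032) had normalized counts of 1284.0, 1319.9 and 1618.3 with PBS (replicates 1 to 3) and 626.8, 594.6 and 632.4 with pIpC, so that every PBS library was above 1280 and every pIpC-labelled library below 640. Its log2 fold change by limma was -1.18, with a standard error of 0.14 and an adjusted p of 0.000717, a level 2.28-fold higher in PBS. Zfpm1, encoding the GATA1 cofactor FOG1 (ENSMUSG00000049577, chr8:122282141-122337251), had normalized counts of 95.2, 70.9 and 130.1 with PBS (replicates 1 to 3) and 351.3, 355.5 and 458.4 with pIpC. Each pIpC-labelled library lay above each PBS library, and its log2 fold change by limma was 2.0, with a standard error of 0.26 and an adjusted p of 0.00129. The log2 ratio of Gata1 to Gata2 counts within a library lay between -6.59 and -6.52 in PBS and between -1.52 and -1.12 in pIpC-labelled libraries, a difference of 5.29. The exact permutation test gave a 2-sided p of 0.1, the smallest that 3 libraries against 3 allow, and 0.1 after adjustment over the 3 ratios tested, so that this design cannot reach 0.05. Per kilobase of exon, Gata1 stood at 2.2% of the Gata2 level in PBS and at 93.0% in the pIpC-labelled libraries.

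In the TAL1 complex the helix-loop-helix factors differed between the groups in opposite directions and the bridging proteins differed from each other. Tal1 (ENSMUSG00000028717, chr4:115056426-115071755) gave only a few reads in each PBS library. Its normalized counts were 3.5, 3.0 and 3.4 with PBS (replicates 1 to 3) and 668.7, 667.2 and 671.1 with pIpC, resting on 4, 3 and 3 reads in PBS and on 670, 653 and 694 reads in pIpC. The 3 pIpC-labelled libraries were nearly equal, with a coefficient of variation of 0.296% where counting alone gives 3.86%. The log2 fold change by limma was 7.29, with a standard error of 0.21 and an adjusted p of 1.25e-05, and the ratio on summed reads, 10 against 2017, was 202 (95% exact interval 110 to 423). The fitted value depends on the pseudocount, from 5.67 with 10 to 7.62 with 0.1. Lyl1 (ENSMUSG00000034041, chr8:84701457-84704715) was in contrast an abundant RNA of the PBS libraries, with normalized counts of 4996.6, 4839.3 and 8453.5 with PBS (replicates 1 to 3) and 3243.7, 3336.8 and 3226.9 with pIpC. All PBS libraries were higher than all pIpC-labelled libraries, and the log2 fold change by limma was -0.85, with a standard error of 0.23 and an adjusted p of 0.0259. PBS replicate 3 carried much of that difference. Leaving it out gave a log2 fold change of -0.59, still called. Leaving out 1 pIpC-labelled library kept the call only just under the threshold of 0.1, with an adjusted p from limma between 0.0852 and 0.0913. Lyl1 remained the more abundant of the pair. The log2 ratio of Tal1 to Lyl1 counts lay between -10.91 and -10.13 in PBS and between -2.32 and -2.26 in pIpC-labelled libraries, a difference of 8.14 (exact permutation test, 2-sided p = 0.1, the smallest possible). Per kilobase of exon Tal1 was at 0.0222% of the Lyl1 level in PBS and at 8.41% in pIpC.

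Lmo2, a LIM domain protein that joins TAL1 or LYL1 to GATA factors (ENSMUSG00000032698, chr2:103957986-103981878), fell. Its normalized counts were 11485.7, 11290.0 and 16033.4 with PBS (replicates 1 to 3) and 4282.7, 3629.0 and 3997.6 with pIpC, and no pIpC-labelled library came near the PBS range. The log2 fold change by limma was -1.69, with a standard error of 0.18 and an adjusted p of 0.000456, a level 3.26-fold higher in PBS. Ldb1, which dimerises and so brings distant complexes together (ENSMUSG00000025223, chr19:46031570-46045214), had normalized counts of 2100.7, 1891.8 and 2885.7 with PBS (replicates 1 to 3) and 2648.9, 2656.4 and 2968.7 with pIpC. The groups overlapped through PBS replicate 3, and the log2 fold change by limma was 0.29, with a standard error of 0.18 and an adjusted p of 0.247. Without that library Ldb1 was called as higher, at 0.47. On the opposite strand Pprc1 covers 177 (3.84%) of the Ldb1 exon bases, and in unstranded libraries reads from that stretch cannot be assigned to either gene. Pprc1 itself was at 884.8 to 1234.87 normalized counts.

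**Figure D2:**
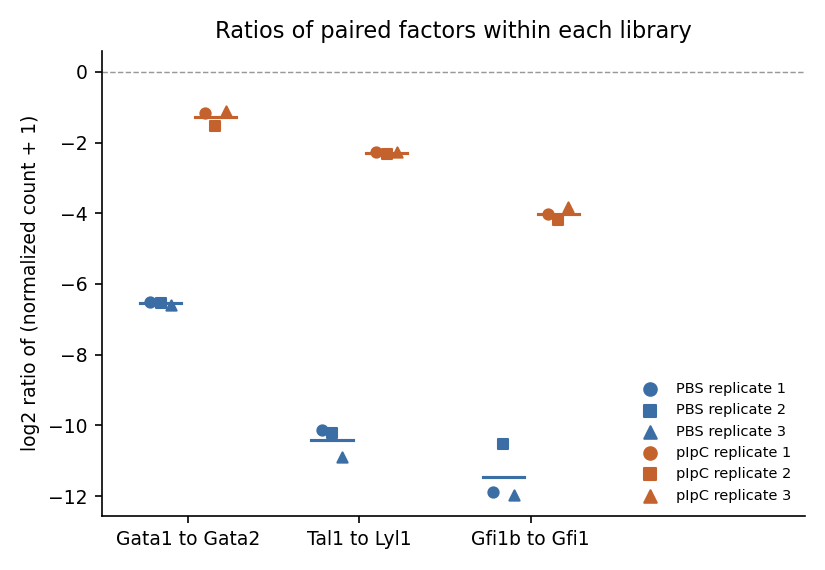
The y axis is the log2 ratio of (normalized count + 1) of the first gene to the second within a library, for 3 pairs of related factors, with PBS in blue, pIpC in orange, replicates by marker shape and group means as short lines. All ratios lie below 0, and in each pair the 3 pIpC-labelled libraries lie above the 3 PBS libraries, by 5.29, 8.14 and 7.45 on average.

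The 3 remaining factors are Klf1, Gfi1b and Nfe2, and 2 of them, Klf1 and Gfi1b, were higher in the pIpC-labelled libraries. Klf1 (ENSMUSG00000054191, chr8:84901928-84905291) had normalized counts of 7.8, 7.1 and 21.5 with PBS (replicates 1 to 3) and 223.6, 158.4 and 258.2 with pIpC, with PBS replicate 3 above the other PBS libraries (19 reads against 9 and 7) yet far below any pIpC-labelled library. Its log2 fold change by limma was 4.17, with a standard error of 0.45 and an adjusted p of 0.000553, and the ratio on summed reads, 35 against 646, was 18.5 (95% exact interval 13.2 to 26.8). Gfi1b (ENSMUSG00000026815, chr2:28609450-28621982) gave 0, 2 and 0 reads with PBS (replicates 1 to 3) and 179, 149 and 221 reads with pIpC. As normalized counts the pIpC-labelled libraries were at 178.7, 152.2 and 213.7, and the log2 fold change by limma was 6.97, with a standard error of 0.51 and an adjusted p of 0.000112. With 2 reads in all of PBS, the ratio on summed reads, 276, has an exact 95% interval from 75.9 to 2282, and the fitted value moved from 4.16 with a pseudocount of 10 to 9.34 with 0.1. Tal1 and Gfi1b could thus not be ranked, since Tal1 had the higher fitted value here and Gfi1b the higher one with a pseudocount of 0.1, by edgeR (7.83 against 7.58) and by DESeq2 (8.10 against 7.66). Gfi1, the paralog of Gfi1b and a repressor that acts within the granulocyte lineage, was called lower (limma log2 fold change -0.48, adjusted p = 0.0196). It was at 4085 ± 361.9 in the PBS libraries and 2917 ± 123.5 in the pIpC-labelled libraries (mean ± SD, n = 3 each). The log2 ratio of Gfi1b to Gfi1 lay between -11.96 and -10.54 in PBS and between -4.19 and -3.82 in pIpC-labelled libraries. The difference was 7.45 (exact permutation test, 2-sided p = 0.1, the smallest possible), and moved from 4.64 with a pseudocount of 10 to 9.83 with 0.1. Nfe2 (ENSMUSG00000058794, chr15:103248212-103258403) had normalized counts of 4032.7, 3714.7 and 6958.6 with PBS (replicates 1 to 3) and 4545.2, 4376.9 and 4461.7 with pIpC. PBS replicate 3 lay far above the other PBS libraries, which lay below all 3 pIpC-labelled ones, so that the groups overlapped. The log2 fold change by limma was -0.08, with a standard error of 0.24 and an adjusted p of 0.824, and without PBS replicate 3 the direction turned, with a log2 fold change of 0.20 that passed the threshold (adjusted p = 0.0222 from limma). The direction of Nfe2 was thus set by 1 library.

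**Figure D3:**
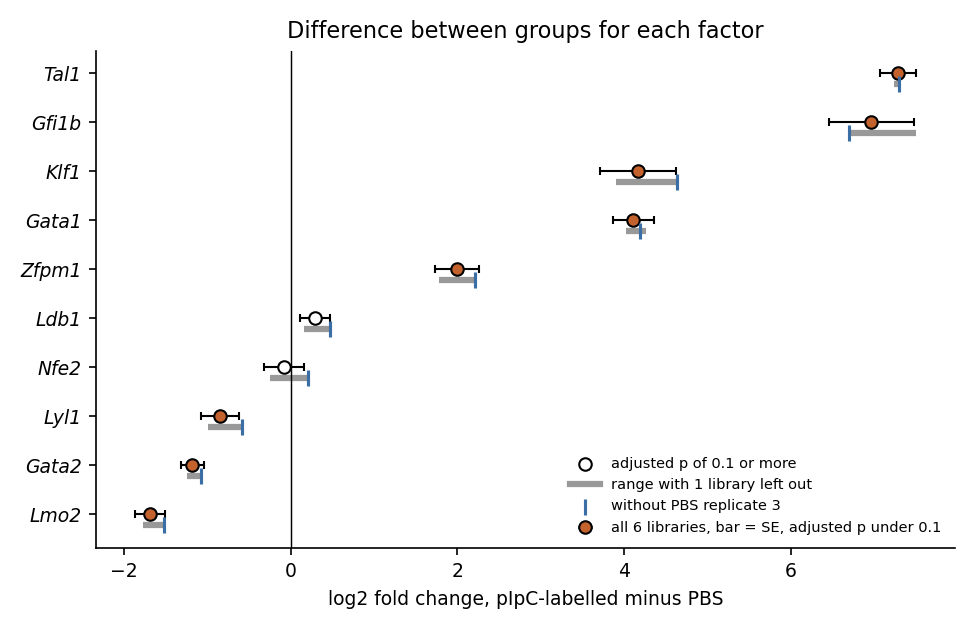
The x axis is the log2 fold change of each factor (rows), pIpC-labelled minus PBS, as circles with the standard error of the limma fit, filled where the adjusted p was under 0.1. Grey bars give the range over fits that each left out 1 library and blue ticks the fit without PBS replicate 3, which moves Nfe2 from -0.08 to 0.20 and leaves the called factors on their side of 0.

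With levels divided by exon length, the 10 factors were spread far more widely in the PBS libraries than in the pIpC-labelled ones. In PBS the order of mean normalized counts per kilobase was Lmo2 (5972 ± 1239), Lyl1 (3387 ± 1135), Nfe2 (1641 ± 598), Ldb1 (497.8 ± 113.8) and Gata2 (260.7 ± 34.0), all SD with n = 3. Below these came Zfpm1 (28.2 ± 8.51), Klf1 (7.92 ± 5.31), Gata1 (5.74 ± 0.658), Tal1 (0.753 ± 0.0521) and Gfi1b (0.369 ± 0.639). The ranges of neighbours in that order overlapped only for Klf1 and Gata1 and for Tal1 and Gfi1b. In the pIpC-labelled libraries Lmo2 (1833 ± 151) and Lyl1 (1816 ± 32.9) overlapped at the top, followed by Nfe2 (1493 ± 28.2) and Ldb1 (598.8 ± 39.6) without overlap. The other 6 factors lay together, at 152.8 ± 0.453 for Tal1, 139.5 ± 33.1 for Klf1, 114.5 ± 3.78 for Gata2, 110.9 ± 17.3 for Zfpm1, 106.5 ± 19.0 for Gata1 and 99.2 ± 16.9 for Gfi1b, and each overlapped its neighbour in the order. Nfe2 in the third place and Ldb1 in the fourth kept their rank in both groups and overlapped no neighbour in either.

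**Figure D4:**
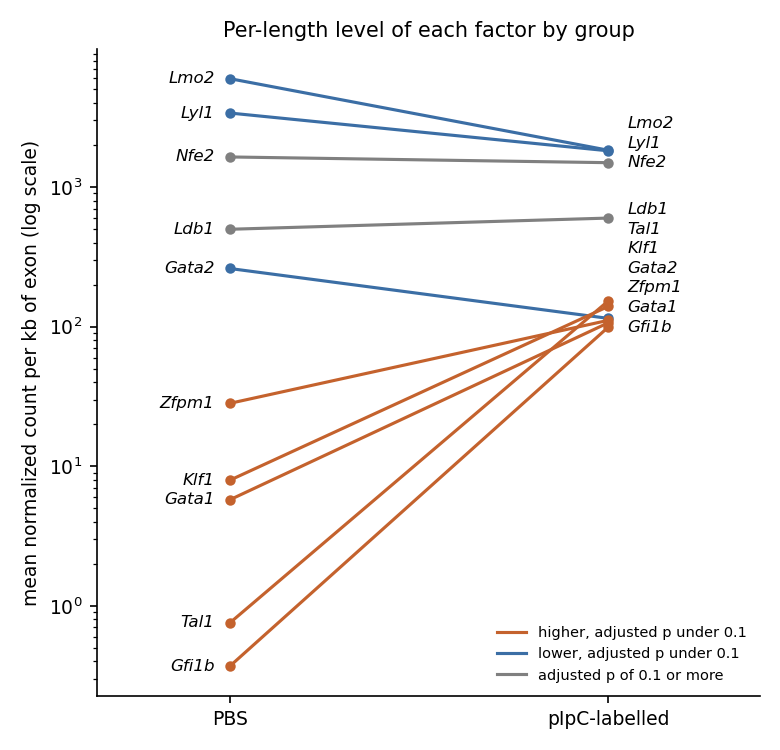
The y axis (log scale) is the mean normalized count per kilobase of exon of each factor in the PBS and the pIpC-labelled libraries, n = 3 each, joined by a line that is orange where the factor was called higher, blue where lower and grey where not called. From 5972 to 0.369 in PBS the levels draw together to between 1833 and 99.2, and labels on the right are spaced out in order of level.

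Within the pIpC-labelled group, replicate 2 held the lowest count of Gata1, Klf1, Gfi1b, Gata2, Lmo2, Nfe2 and Tal1. For Tal1 and Nfe2 that gap was small (coefficients of variation of 0.296% and 1.89%), whereas Gata1, Klf1 and Gfi1b had coefficients of variation of 17.9%, 23.8% and 17.0%. Zfpm1 varied by 15.6% and was lowest in replicate 1. The summed count of 6 red cell markers (Hbb-bs, Hba-a1 and Alas2 among them) was also lowest in pIpC replicate 2, at 2381 against 3568 and 2979 in replicates 1 and 3. That of 6 megakaryocyte markers (Pf4, Ppbp and Itga2b among them) was in contrast lowest in replicate 3, at 1379 against 1893 and 1996. In PBS the red cell sum was between 6.92 and 11.3, with Slc4a1 and Rhag among the markers at 0 reads in every library, and 6 of 6 markers were called higher in pIpC, beside 25.0% of all genes called higher and 20.4% lower. All 6 had a PBS mean under 10 and so passed the filter through the pIpC-labelled libraries. The megakaryocyte sum was between 338.3 and 534.1 in PBS, most of it Itga2b, with Ppbp and Gp1bb at 0, and 5 of 5 markers tested were called higher. Gp1bb was not tested and was near 0 with pIpC too, at 0, 0 and 2 reads in replicates 1 to 3. Mast cells, basophils and eosinophils use GATA factors too. Of 7 mast cell and basophil markers tested 6 were called higher, with a summed count of 3153 to 5172 in PBS, where Fcer1a and Cma1 were at 0, and of 10360 to 12500 in pIpC. The marker not called was Cpa3, at 1022 ± 578 in PBS and 911 ± 254 in pIpC (limma log2 fold change -0.06, adjusted p = 0.912). Cma1 was not tested and had only 2, 1 and 2 reads with pIpC (replicates 1 to 3). Of 7 eosinophil markers tested, 3 were called higher and 2 lower, with a sum of 10040 to 20620 in PBS, where Ear6 was at 0, and of 4234 to 4616 in pIpC. B cell markers were higher in 7 of 7 (135.6 to 304.4 in PBS and 1232 to 2239 in pIpC), and of 7 macrophage markers 3 were higher and 3 lower (12590 to 16690 and 7254 to 8386). A PBS mean under 10 was also the case for 3 of the 5 megakaryocyte, 3 of the 7 mast cell and basophil, 2 of the 7 eosinophil, 5 of the 7 B cell and 1 of the 7 macrophage markers tested. The part of these cell types in the levels of the 10 factors was not tested.

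Proteins that work with the 10 factors were called in both directions. Of 24 partners tested, 7 were called higher and 4 lower, beside 45.3% of all genes called, and their median log2 fold change was 0.27. Cbfa2t3 (ETO2), a corepressor that binds the TAL1 complex and holds back red cell genes, fell from 2549 ± 273 to 740.7 ± 51.4 normalized counts (SD, n = 3 each), with a limma log2 fold change of -1.78, adjusted p = 0.000116. It was the lowest of the partners, and the others called lower were Maff, Hdac2 and Ssbp3, which are named after their values were seen. Ssbp3 was close to the threshold (adjusted p = 0.0845 by limma). Of the E proteins that dimerise with TAL1 and LYL1, Tcf4 rose most, from 79.2 ± 28.5 to 772.7 ± 100.9 (limma log2 fold change 3.33, adjusted p = 0.000265). Tcf3 was called higher at 0.28, just under the threshold (adjusted p = 0.0922 by limma), and Tcf12 at 0.18 was not called. For Tcf12, PBS replicates 1 and 2 (1489.0 and 1433.3) lay above all pIpC-labelled libraries (1196.2 to 1267.9) and PBS replicate 3 far below (582.8). The direction of Tcf12 was thus set by 1 library. Ssbp2, which stabilises LDB1, was called higher at 0.99. Mafk, a small MAF protein that pairs with NFE2, was called higher at 0.33, just under the threshold (adjusted p = 0.0943 by limma). Kdm1a (0.22) and Rcor1 (0.56), the corepressor through which GFI1B acts, did not pass. The groups did not overlap for either gene, as for 56.8% of all genes tested. For Rcor1, PBS replicate 3 was at 1249.4, against 2348.2 and 2425.2 in PBS replicates 1 and 2.

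Relatives of the factors were tested in 9 of 19 cases, the other 10 having a mean count under 10, and 6 were called higher and 2 lower, where 25.0% and 20.4% of all genes were, with a median log2 fold change of 1.49. Lmo2 was lower with pIpC, whereas Lmo4 rose from 1445 ± 363 to 3989 ± 33.9 normalized counts (limma log2 fold change 1.49, adjusted p = 0.000949) and Lmo1 from 33.8 ± 10.9 to 276.2 ± 63.7 (3.01, adjusted p = 0.000372). Tal2 was called higher like Tal1, at 3.46 and the highest of the list, from a PBS mean of 2.53. As that mean is under 10, Tal2 passed the filter through the pIpC-labelled libraries, and passing it already required a difference. Klf2 had the lowest log2 fold change at -2.53, while Klf3 was called higher (1.74), as Klf1 was. Nfe2l2, a regulator of the oxidative stress response, rose (1.71), and Nfe2l1, at 0.43, was the only relative tested that was not called and is named for that after its value was seen. The groups did not overlap for Nfe2l1, and PBS replicate 3 was its lowest PBS library, at 1086.4 against 1737.3 and 1646.8. Gata3, with 0 reads in PBS, had a mean of 17.97 ± 3.91 in pIpC-labelled libraries, at least 5.29-fold above a floor of 3 reads per PBS library. The other 3 GATA genes of the list were at 0 reads in all 6 libraries.

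Of 15 other lineage factors, 6 were called higher and 4 lower, beside 45.3% of all genes called in either direction, with a median of -0.09. Erg, Fli1 and Runx1 bind stem cell enhancers together with GATA2, TAL1, LYL1 and LMO2. Of these 3 genes only Fli1 was called (higher, 0.59, adjusted p = 0.00583 by limma), and Erg (0.31) and Runx1 (-0.24) were not. Spi1, whose product PU.1 opposes GATA1, was at 7463 ± 2524 in the PBS libraries and 6762 ± 127.4 in the pIpC-labelled libraries (mean ± SD, n = 3 each), with a limma log2 fold change of -0.09, adjusted p = 0.776. PBS replicate 3 was the highest PBS library for Spi1 as well, at 10376.2. Myb, a progenitor factor, fell (-1.24, adjusted p = 0.000705 by limma). Bcl11a, a repressor of embryonic and fetal globin genes that B cells also use, had the highest log2 fold change of the list, from 3.21 ± 1.042 to 889.7 ± 32.1 (7.75, adjusted p = 1.68e-05 by limma), and Hoxa9 the lowest, at -4.32. Bcl11a was 1 of 2 genes of this list with a PBS mean under 10. Those 2 passed the filter through the pIpC-labelled libraries and so had to differ.

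Genes that GATA1 and KLF1 activate in red cells were mostly higher in the pIpC-labelled libraries. Of the 23 found, 22 were tested, and 20 were called higher and 2 lower, where 25.0% and 20.4% of all genes were. The list was chosen with earlier results of these data known, and 16 of the 22 had a PBS mean under 10, so that they passed the filter through the pIpC-labelled libraries and had to differ. The median log2 fold change was 6.46, or 5.44 with the 11 genes at 3 reads or fewer in every PBS library set to their lower bound. Epor, the erythropoietin receptor gene, gave 1.59 ± 1.52 and 162.8 ± 59.7 normalized counts (SD, n = 3 each), and its pIpC-labelled values, 151.7, 109.3 and 227.2, were again lowest in replicate 2. Slc4a1, encoding the band 3 anion exchanger, was at 0 reads in PBS and at 274.4 ± 7.90 in pIpC, at least 80.8-fold above the floor of 3 reads per library. Hbb-bs had the highest fitted change, 8.52, although reads can be shared with the near-identical Hbb-bt. E2f2, a cell cycle factor of maturing red cells, rose from 782.8 ± 29.5 to 4330 ± 450. The 2 genes called lower, Slc25a37 (-0.70) and Fech (-0.47), serve mitochondrial iron uptake and the last step of heme synthesis and were well counted in PBS, at 6387 ± 1708 and 1238 ± 263. Fech was only just under the threshold (adjusted p = 0.0945 by limma). Its groups overlapped, with PBS replicate 3 at 938.2 and pIpC replicate 3 at 951.5.

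Of 15 megakaryocyte genes 14 were tested and all 14 were called higher, where 25.0% of all genes were, but 9 of them had a PBS mean under 10 and passed the filter through the pIpC-labelled libraries. The median log2 fold change was 5.19, or 4.12 with the 8 genes at the floor set to their bound. Pf4, encoding platelet factor 4, was at 2.6, 4.0 and 0.0 normalized counts with PBS (replicates 1 to 3) and at 461.1, 456.7 and 276.6 with pIpC. Ppbp had the highest fitted change and was at least 92.1-fold above the floor of 3 reads per library. The integrin genes Itga2b (1.08, the lowest of the list) and Itgb3 (1.12) were counted in PBS already, at 396.3 ± 89.9 and 948.1 ± 288.7, while neither Tal1 nor Gfi1b was above 4 reads there.

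**Figure D5:**
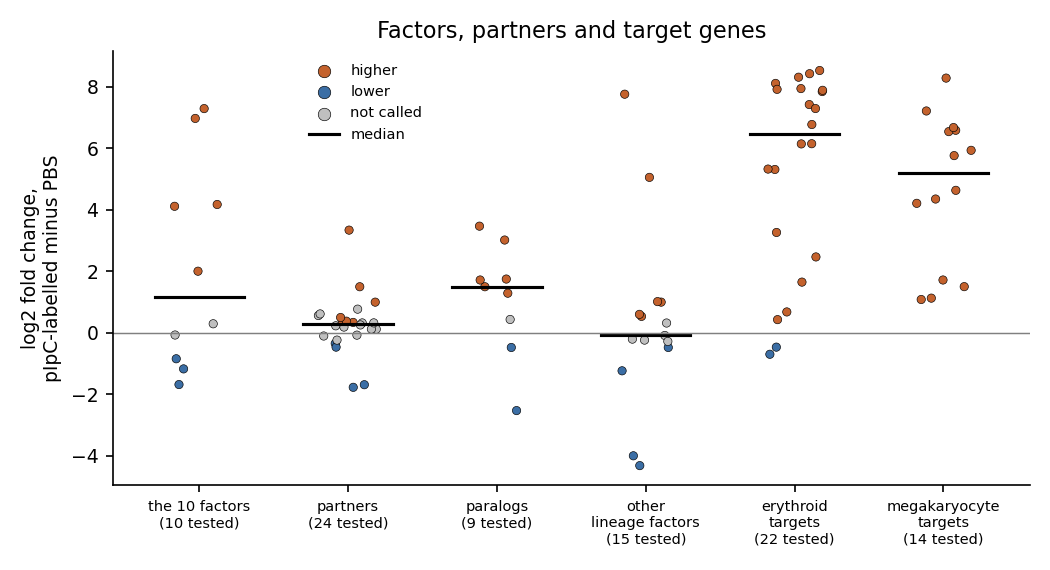
Each point is the log2 fold change of a tested gene, pIpC-labelled minus PBS, for the 10 factors and 5 lists of related genes, with the number tested under each name, in orange where called higher, blue where called lower and grey where not called, and the median as a black line. The target gene lists lie mostly above 0 (medians 6.46 and 5.19), the partners spread around 0 (median 0.27), and the 10 factors lie on both sides of 0.

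Profiles over the 6 libraries were compared with those of 14976 other tested genes by the root mean square difference of log2(normalized count + 1), each profile centred on its own mean. The genes most like Gata1 were Fyn (0.15), Mgst2 (0.18) and Fcnb (0.19), those most like Gata2 were Arsa (0.05), Fut7 (0.06) and Tasp1 (0.07), and those most like Klf1 were Ighv1-83 (0.14), Igkv8-28 (0.25) and Nkg7 (0.26). As the 6 libraries fall into 2 groups, a gene with a similar difference between them scores as alike. Ighv1-83 and Igkv8-28 are immunoglobulin segments of multigene families, whose reads can be shared between copies, and neither exceeded 2.3 normalized counts in PBS.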

How the data were processed

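Bulk RNA was measured in 6 libraries, 3 labelled PBS and 3 labelled pIpC. The deposited table holds 1 normalized count per gene and library, here treated as a signal: the authors multiplied gene counts by 1 factor per library. The submitters' processing notes name HISAT2 (version 2.2.1), featureCounts and edgeR with GRCm38, and the labels give unstranded libraries of GFP+ cells, whereas the methods of the paper name a STAR and RSEM pipeline, DESeq2, stranded libraries and c-Kit+ cells. Within a library every value was a whole number of steps (100% within 0.01 of a step), so 1 step was read as 1 read and whole reads were recovered. Symbols, positions and exon lengths came from GENCODE M21 (GRCm38), with 55141 of 55487 IDs matched, and promoters from RefSeq (GRCm38.p6). No value column was left out.

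limma (version 3.58.1, R 4.3.3) with an intensity trend was run on log2 of the normalized count plus 1, for 15020 genes averaging 10 or more over the 6 libraries. This scale understates the change of low genes. The threshold was a Benjamini-Hochberg adjusted p under 0.1, the study's threshold. Within-library ratios had an exact permutation test. Intervals on summed reads are exact (Clopper-Pearson, 95%) and cover counting error only, and those ratios are scaled for depth. Floors are 3 reads per PBS library. The alternatives were other pseudocounts (0.1 and 10), filters (none and 50) and scalings, each library left out, a replicate block, no intensity trend, an adjusted p under 0.05, and edgeR (version 4.0.16, quasi-likelihood) and DESeq2 (version 1.42.0) on recovered reads. Removal of the exon length trend was added after seeing the data. The scripts were tested on simulated data.

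Genes named are the 10 factors, Brd9, the highest and lowest of each list and up to 6 of its genes tied to a factor by complex, regulation or marker role, and the 3 genes most like Gata1, Gata2 and Klf1 in profile. The factors and lists were chosen with earlier results of these data known. Ahsp was listed among the red cell genes and did not match a symbol. Some listed genes are not reported here by name. Deviations from the group mean, compared between libraries with the same number, correlated at -0.12, 0.14 and 0.04, so the replicate numbers were not taken as pairs.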

Additional observations from a re-analysis of the deposited data

How the results depend on the processing

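The number of genes called was 6808, between 4650 (without pIpC replicate 2) and 9783 (without PBS replicate 3) with 1 library left out and between 5231 and 7910 under the other alternatives. Quantile normalization gave 3244 higher and 4078 lower genes and moved the median of all genes to -0.12. edgeR called 6930 genes and DESeq2 7451 on recovered reads. Of the 10 factors 8 were called, and between 8 and 10 with 1 library left out, the 2 additional ones being Nfe2 and Ldb1 without PBS replicate 3. Over 180 combinations of the 10 factors with 18 alternatives, 177 kept their direction and side of the threshold, 1 passed it in addition (Ldb1 at 0.47) and 2 turned: Nfe2 was at 0.20 without PBS replicate 3 and at 0.0077 once the exon length trend was removed (adjusted p = 0.975 from limma), an alternative chosen after seeing the data. With 1 library left out Nfe2 ranged from -0.25 to 0.20, Brd9 ranged from 0.12 to 0.24, the ratio of Gata1 to Gata2 from 5.21 to 5.42, that of Tal1 to Lyl1 from 7.89 to 8.28 and that of Gfi1b to Gfi1 from 7.20 to 7.91. The replicate numbers did not pair the libraries. With a replicate block 6095 genes and the same 8 factors were called. Depth limits Tal1 and Gfi1b in PBS, with 10 and 2 reads over 3 libraries, so that their fold changes are known only within the intervals given.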
